A study of Mus musculus with 4 samples.

Results

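Liver reads thyroid hormone through a short chain of proteins, and 8 genes of that chain were followed here in 4 mouse livers. They were chosen by name: Slc16a10 and Ttr for transport, Dio1 for activation, Thra and Thrb for the receptors, and Klf9, Thrsp and Me1 as target genes. The choice was made with earlier results of these data known. The 8 stand among 55487 gene identifiers counted in each library, and all 8 passed the filter on low counts that left 14411 genes for testing. The PA group was 2 female mice labelled as hypomorphic Pcca-/- with the allele A138T, and the WT group was 2 female wild-type mice. All 4 mice were 11 weeks old, on the FVB background and on standard chow, and polyadenylated liver RNA was sequenced. The product of Pcca is part of propionyl-CoA carboxylase, which breaks down propionyl-CoA in mitochondria, and the design sets the livers of the 2 genotypes side by side. The labels name no tissue-specific promoter or Cre and give neither the hour nor the feeding state at which the livers were taken.

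As background, the thyroid gland secretes mainly thyroxine (T4), which has to lose an iodine to become the more active triiodothyronine (T3). Cells take up T4 and T3 through membrane carriers, deiodinases activate or inactivate them, and T3 binds nuclear receptors that sit on DNA as partners of RXR. In liver the receptors control genes of fat synthesis, cholesterol handling and glucose output, and Dio1 is itself a classical T3-induced gene in rodents.

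The enzyme that activates the hormone, type 1 deiodinase, is a selenoprotein: an in-frame TGA triplet, which usually ends translation, is read as selenocysteine at the active site. The coding stretch around this triplet is shown because Dio1 was the gene called among the 8. It was taken from GENCODE M21 transcript Dio1-201, exon 2 of 4, chr4:107297670-107297732 on the minus strand (GRCm38), and the capitals mark the triplet, codon 126 of 257.
Dio1 coding stretch: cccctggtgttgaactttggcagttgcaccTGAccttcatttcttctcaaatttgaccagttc
The 249 bases before the Dio1 start in RefSeq (GRCm38.p6, chr4:107307170-107307418, minus strand) are shown with it as the promoter-side sequence of the same gene.
Dio1 upstream stretch: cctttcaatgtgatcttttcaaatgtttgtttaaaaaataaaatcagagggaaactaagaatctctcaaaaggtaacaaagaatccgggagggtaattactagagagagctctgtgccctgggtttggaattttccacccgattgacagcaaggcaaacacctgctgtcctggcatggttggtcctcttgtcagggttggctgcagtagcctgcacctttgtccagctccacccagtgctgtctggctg
It has no capitals because none of 3 searched motifs occurs in it on either strand. These were AGGTCA, the hexamer that thyroid hormone receptors and related nuclear receptors bind, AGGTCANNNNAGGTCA, the same hexamer repeated at a spacing of 4 bases, and CACGTG, an E-box that clock and carbohydrate-response factors bind. Of 32851 such windows over all genes, 14.0% held the hexamer, 0.0152% the repeat and 6.0% the E-box, and a match to the repeat is also a match to the hexamer. The table gave 8 windows for 6 of the 8 genes, Thra and Ttr having none, and the hexamer stood in 1 of them, a window of Thrb (RefSeq, GRCm38.p6, chr14:17660764-17660793, plus strand, hexamer in capitals).
Thrb window: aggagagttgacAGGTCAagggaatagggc
The stretch with the hexamer lies downstream of the Thrb gene start in GENCODE M21 (17660261), so its window precedes a later RefSeq start. The E-box also stood in 1 window, likewise of Thrb. These matches are letters in a short window, and a missing match says nothing about binding elsewhere.

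Each library held 25575016 to 30110400 gene counts on the strand opposite to the gene, where 96.96 to 97.08% of stranded counts fell. Levels are given as CPM, counts scaled to a common library total, and 3 counts amounted to 0.0996 to 0.117 CPM. Pcca was read at 34.2 and 47.4 CPM in the PA livers, against 60.3 and 58.9 CPM in the WT livers (log2 fold change -0.55 ± 0.22 SE, adjusted p = 0.398 by edgeR's quasi-likelihood test). Reads summed over a gene do not show which allele they came from. PA replicate 1 stood apart in 2 measures taken over the whole library. Reads mapped to several places made up 13.53% of it, against 9.11 to 9.42% in the other 3 libraries. The 13 mitochondrially encoded genes took 13.2% of its counts, against 8.67% in PA replicate 2 and 6.78 and 7.23% in the WT libraries. The 8 hepatocyte markers, albumin among them, took 14.3 and 18.2% of counts in the PA livers and 15.9 and 17.3% in the WT livers. Over all tested genes the median log2 fold change was 0.0049, and 50.6% of them had higher values in PA.

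Dio1 fell in the PA livers, and none of the other 7 genes passed the test. Its level was 31.3% of the WT level, while the 2 receptors, the carrier, the plasma carrier and the 3 other target genes had adjusted p-values from 0.474 to 0.995. The count was thus 1 of 8 lower and 0 of 8 higher at an adjusted p under 0.05. The shares over all 14411 genes were 0.548% lower, 0.264% higher and 0.812% in either direction. Because the 8 were chosen with earlier results of these data known, their count is not independent of these data. DESeq2 and limma-voom, 2 other tests of the same counts, gave the same 1 lower and 0 higher, and 1 of 8 genes had an edgeR unadjusted p under 0.05, against 11.8% of all genes. CPM of the groups did not overlap for Dio1, Thra and Ttr, 3 of 8 genes, and a lack of overlap was found for 43.2% of all tested genes. The median log2 fold change of the 8 was 0.013.

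**Figure D1:**
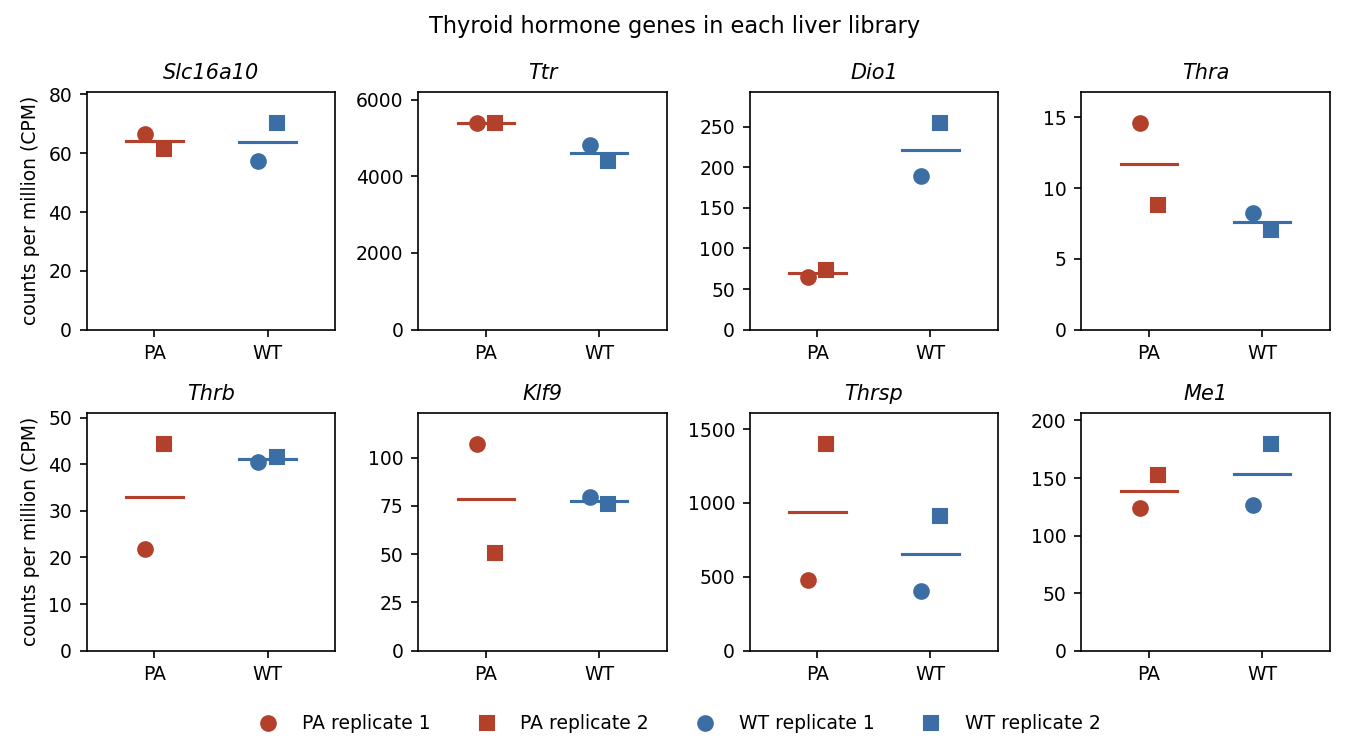
CPM of the 8 thyroid hormone genes in each library, PA left and WT right, with circles for replicate 1, squares for replicate 2 and bars for group means. Dio1 lies at 65.1 and 73.6 CPM in PA and at 189 and 255 CPM in WT, and Thrb, Klf9 and Thrsp have wide PA pairs.

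Slc16a10 encodes MCT10, a membrane carrier that lets aromatic amino acids and iodothyronines, T3 above all, cross the cell membrane (ENSMUSG00000019838, chromosome 10, 40033532 to 40142258, minus strand, GRCm38). It was read at 66.6 and 61.4 CPM in the PA livers and at 57.2 and 70.3 CPM in the WT livers. The PA values lie inside the WT pair. PA over WT gave a log2 fold change of 0.007 ± 0.21 (SE) and a 95% interval of -0.48 to 0.49 (edgeR adjusted p = 0.995), and its sign turned with library sizes only, with no filter on low counts, and without PA replicate 1 or WT replicate 1. The mean transcript length that RSEM assigned, which moves with the mix of annotated isoforms, was 4600 and 4168 bases in the PA livers, against 5006 and 5061 bases in the WT livers. Both PA lengths were shorter, a difference that was not tested.

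Ttr encodes transthyretin, a plasma carrier of thyroxine and of retinol-binding protein that hepatocytes secrete (ENSMUSG00000061808, chromosome 18, 20665280 to 20674321, plus strand). It was by far the most abundant of the 8, at 5389.9 and 5389.4 CPM in the PA livers and at 4823 and 4386 CPM in the WT livers. On the log2 scale the difference was 0.23 ± 0.28 (SE), with an interval of -0.43 to 0.88 (edgeR adjusted p = 0.81). The PA libraries agreed more closely than those of 99.7% of tested genes, and both lay above both WT libraries. In TPM, the transcript measure that RSEM scales within a library by length and total, Ttr stood at 4343 and 5423 in PA and at 5191 and 4449 in WT. On that scale the groups overlap, so the small separation in CPM depends on the scaling.

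Dio1, the deiodinase of liver and kidney that makes T3 from T4 and clears reverse T3 (ENSMUSG00000034785, chromosome 4, 107291465 to 107307169, minus strand), had 1658 and 2188 counts in the PA livers and 5790 and 6481 counts in the WT livers. In CPM these were 65.1 and 73.6 in PA and 189 and 255 in WT, or 69.4 ± 6.04 against 222 ± 46.5 (SD, n = 2 each). The groups were far apart: the higher PA library lay well below the lower WT library, and the WT pair was the wider of the pairs. On the log2 scale the fold change was -1.68 ± 0.25 (SE), with a 95% interval of -2.25 to -1.10 (edgeR adjusted p = 0.0378). By its p-value Dio1 ranked 87 of 14411 genes, and 1.55% of tested genes had a lower log2 fold change. In TPM the values were 38.2 and 52.8 in PA and 146 and 186 in WT, and the mean RSEM transcript length stayed between 1663 and 1690 bases in the 4 libraries. Over 14 alternatives the log2 fold change ran between -1.88 and -1.43 and the adjusted p between 8.31e-08 and 0.0958. The highest value, 0.0958, came from the fit without WT replicate 2, where the call was lost at a log2 fold change of -1.43. In bulk liver RNA, fewer cells that express a gene and less RNA per cell cannot be told apart. The summed level of the hepatocyte markers, most of it albumin, overlapped between the groups. By gene, 4 of the 8 markers did not overlap, 3 higher and 1 lower in both PA livers, against 43.2% of all tested genes. A change in the number of hepatocytes was not tested.

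**Figure D2:**
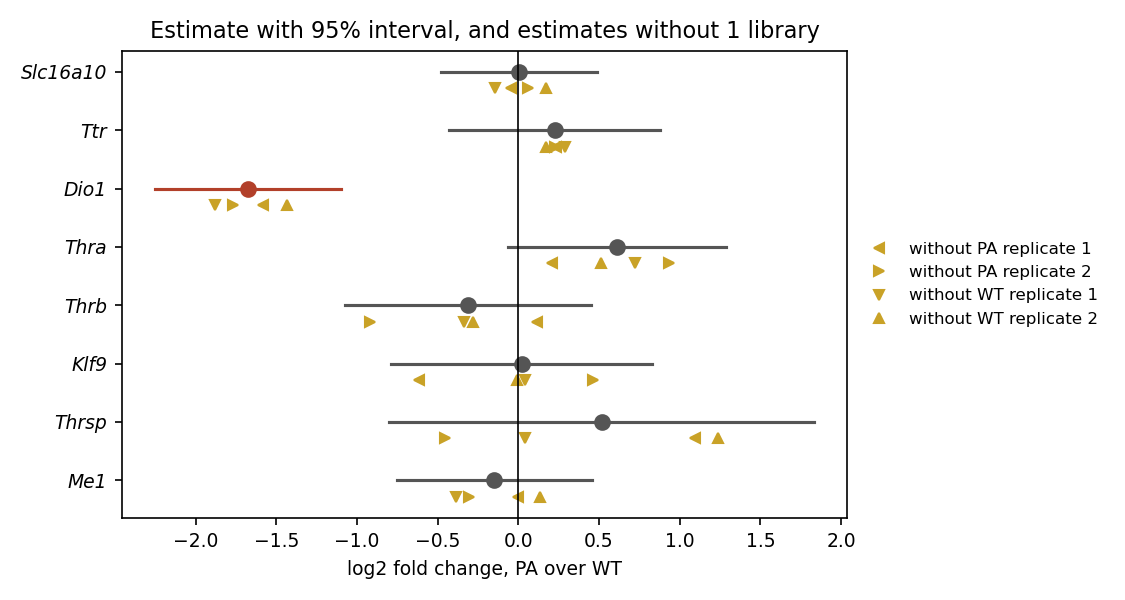
Log2 fold change of PA over WT for the 8 genes with its 95% interval (circles and lines, red for an adjusted p under 0.05), and the estimate without each library (yellow triangles). The interval of Dio1 runs from -2.25 to -1.10, and the triangles of Thrb, Klf9, Thrsp, Me1 and Slc16a10 fall on both sides of 0.

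The receptors did not pass the test in either direction. Thra encodes the alpha receptor and, by splicing, a variant that does not bind T3, and counts per gene do not separate them (ENSMUSG00000058756, chromosome 11, 98740638 to 98769006, plus strand). It was read at 14.6 and 8.82 CPM in the PA livers and at 8.25 and 7.03 CPM in the WT livers, from 372 and 262 counts in PA and 253 and 179 counts in WT. Both PA values lie above both WT values, but PA replicate 2 only narrowly. The fold change, 0.61 ± 0.29 on the log2 scale (SE), had an interval of -0.06 to 1.29 (edgeR adjusted p = 0.474). Leaving out PA replicate 1 gave 0.21, and leaving out PA replicate 2 gave 0.93.

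The 3' end of Thra overlaps Nr1d1, which lies on the other strand and encodes the clock repressor REV-ERB alpha, with 263 shared exon bases. Nr1d1 had 605 and 152 counts in the PA livers and 912 and 694 counts in the WT livers (log2 fold change -0.99, edgeR adjusted p = 0.581), and it was called lower once PA replicate 1 was left out. Reads in the Thra gene on the strand of Nr1d1 numbered 71 and 17 in PA and 98 and 65 in WT, and the stranded count keeps them out. Without regard to strand, reads that touch both genes are set aside as ambiguous, and the log2 fold change of Thra was then 0.54 (edgeR adjusted p = 0.518). Among the other genes, Me1 shares 30 exon bases with A330041J22Rik on the other strand, which had 2 to 5 counts in each library. Thrb and Slc16a10 span Gm48320, Gm24140, Gm48321 and Gm25613 on the other strand, with no shared exon bases and 0 counts for each.

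Thrb encodes the beta receptor, the main thyroid hormone receptor of hepatocytes (ENSMUSG00000021779, chromosome 14, 17660261 to 18038090, plus strand). It was read at 21.7 and 44.3 CPM in the PA livers and at 40.4 and 41.6 CPM in the WT livers. The WT livers were nearly equal, and the PA livers lay 2.04-fold apart, on either side of them. This gave a log2 fold change of -0.31 ± 0.32 (SE) and an interval of -1.08 to 0.45 (edgeR adjusted p = 0.774). The estimate was -0.92 when PA replicate 2 was left out and 0.12 when PA replicate 1 was left out, so in CPM PA replicate 1 alone carried the lower mean. In TPM, PA replicate 2 also lay below both WT livers, at 9.17 against 9.62 and 9.95. The mean RSEM transcript length, by which TPM divides, was 4797 and 5176 bases in the PA livers and 4904 and 4677 bases in the WT livers. Only 7.92% of tested genes differed more between the PA livers.

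Per length, the receptors were the rarest of the 8 transcripts. Thra stood at 7.09 and 4.88 TPM in PA and at 5.47 and 3.47 TPM in WT, and Thrb at 3.85 and 9.17 TPM in PA and at 9.62 and 9.95 TPM in WT. Unlike in CPM, the groups overlap for Thra on this scale, and both PA livers lay below both WT livers for Thrb. The separation of the groups for both receptors thus depends on the scaling. The ratio of Thrb to Thra in TPM was 0.543 and 1.88 in the PA livers and 1.76 and 2.87 in the WT livers. PA replicate 1 was thus the library in which the alpha gene was the more abundant, and the other PA library lay inside the WT pair.

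In CPM the 3 remaining target genes varied more between mice of a group than between the groups. Klf9 encodes a zinc finger transcription factor induced by T3 and by glucocorticoids, whose level also follows the clock (ENSMUSG00000033863, chromosome 19, 23141226 to 23168134, plus strand). It was read at 107 and 50.5 CPM in the PA livers and at 79.5 and 76.0 CPM in the WT livers. The PA livers lay 2.12-fold apart around a nearly equal WT pair. Between the groups the log2 fold change was 0.020 ± 0.34 (SE), with an interval of -0.79 to 0.83 (edgeR adjusted p = 0.99). Left-out fits gave -0.62 (PA replicate 1 left out) and 0.46 (PA replicate 2 left out).

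Thrsp encodes Spot 14, a small nuclear protein that takes part in fat synthesis and that both T3 and a carbohydrate-rich meal induce (ENSMUSG00000035686, chromosome 7, 97412938 to 97417730, minus strand). It had 480 and 1399 CPM in the PA livers and 403 and 910 CPM in the WT livers. In each group replicate 2 was the higher, 2.92-fold in PA and 2.26-fold in WT, and the groups overlap. Its fold change of 0.52 ± 0.56 on the log2 scale (SE) had an interval of -0.80 to 1.84 (edgeR adjusted p = 0.781), the widest interval of the 8. Fits that left out PA replicate 1, PA replicate 2, WT replicate 1 and WT replicate 2 gave 1.10, -0.45, 0.04 and 1.23 in that order. Differences larger than these within a group were seen in 2.19% of tested genes in PA and in 2.78% in WT.

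Me1 encodes cytosolic malic enzyme, a source of NADPH for fatty acid synthesis (ENSMUSG00000032418, chromosome 9, 86581371 to 86695953, minus strand). It was read at 124 and 153 CPM in the PA livers and at 127 and 180 CPM in the WT livers, with replicate 2 the higher in each group. The groups overlap, with a log2 fold change of -0.15 ± 0.26 (SE), an interval of -0.75 to 0.46 (edgeR adjusted p = 0.881) and a value of 0.13 once WT replicate 2 was left out. The mean RSEM transcript length of Me1 was 2448 and 2629 bases in the PA livers and 2231 and 2307 bases in the WT livers. Both PA lengths were longer, which was not tested. In TPM both PA livers lay below both WT livers, at 53.9 and 77.7 against 82.7 and 106, so the overlap in CPM depends on the scaling.

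By TPM the order of the 8 began with Ttr and Thrsp and ended with Thra and Thrb in every library. Between them Me1 stood above Dio1 in both PA livers, with 53.9 against 38.2 TPM in PA replicate 1 and 77.7 against 52.8 TPM in PA replicate 2. Dio1 stood above Me1 in both WT livers, with 146 against 82.7 TPM in WT replicate 1 and 186 against 106 TPM in WT replicate 2. Klf9, at 12.8 to 21.7 TPM, and Slc16a10, at 13.2 to 16.9 TPM, overlap and change places in PA replicate 2. The order by mean level was the same in FPKM.

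The pattern of Dio1 over the 4 libraries was most like that of Slc6a9, Mmp27 and Slc16a11. Likeness was the distance between log2 CPM values after each gene's 4-library mean was taken off, 0.26, 0.29 and 0.33 on the log2 scale. It was taken over tested protein-coding genes. A small count was added before the logarithm, which narrows the differences of genes with few counts. Slc6a9, a glycine transporter, was at 5.81 and 7.13 CPM in PA and at 15.3 and 19.8 CPM in WT (edgeR adjusted p = 0.0552). Mmp27, a matrix metalloproteinase, was at 0.314 and 0.337 CPM in PA and at 1.24 and 1.296 CPM in WT (edgeR adjusted p = 0.107). Its values came from only 8 and 10 counts in PA and 38 and 33 counts in WT, so its place depends on the added count. The pattern of Thra was most like that of Hspa12b, Uqcrq and Rbpms, at distances of 0.066, 0.081 and 0.11, and none of these passed the test (edgeR adjusted p = 0.623, 0.533 and 0.395). With 4 libraries many genes share a pattern.

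Among 16 tested genes of iodothyronine uptake, binding and clearance, 1 was called lower and 0 higher, and 8 had positive and 8 negative log2 fold changes with a median of -0.005. The called gene was Slco1a1, an organic anion transporter of hepatocytes whose substrates include thyroxine and its conjugates. It had 0.353 and 0.774 CPM in the PA livers and 350.1 and 218 CPM in the WT livers (-8.94 ± 0.49 SE on the log2 scale, edgeR adjusted p = 0.000535). It remained called in the 4 fits that left out a library, between -9.63 and -8.51, and was at -6.85 with unstranded counts and -8.13 with RSEM expected counts. The median of the list lay between -0.19 and 0.17 when 1 library was left out. The next genes were named after their values had been seen. Serpina7, thyroxine-binding globulin, was at 132 and 62.6 CPM in PA and at 36.2 and 36.0 CPM in WT (log2 fold change 1.43, edgeR adjusted p = 0.155), and it was called higher by DESeq2 and without PA replicate 2. Its groups do not overlap. Of the other deiodinases, Dio2 had 0 counts in each library and Dio3 had 6 and 3 counts in PA and 3 and 1 in WT, so neither was tested.

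Among 16 receptor partners and cofactors, RXR subunits, corepressors and coactivators, 0 were called by edgeR, DESeq2 or limma-voom, and 1 had an edgeR unadjusted p under 0.05. That gene was Ppargc1a, a coactivator of mitochondrial and gluconeogenic genes, at 22.1 and 14.6 CPM in PA and at 6.65 and 11.1 CPM in WT (log2 fold change 1.05, edgeR adjusted p = 0.251). Tbl1xr1 and Gps2, subunits of the corepressor complex, were at 0.33 and -0.35 on the log2 scale (edgeR adjusted p = 0.567 and 0.594). The median of the list was 0.016 (-0.10 to 0.14 when 1 library was left out), and Gps2 had its lowest value.

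Among 18 other genes regulated by thyroid hormone in rodent liver, 0 were called by edgeR or limma-voom, 1 by DESeq2, and 3 had an edgeR unadjusted p under 0.05, with 12 positive values and a median of 0.20 (0.01 to 0.32 when 1 library was left out). The smallest p belonged to Hr, the corepressor Hairless and a direct T3 target, known as such from brain in rodents. It had 5.10 and 1.08 CPM in the PA livers and 0.391 and 0.118 CPM in the WT livers (3.52 ± 0.86 SE on the log2 scale, edgeR adjusted p = 0.158), and DESeq2 called it higher. These values came from 130 and 32 counts in PA and from only 12 and 3 counts in WT. Hr thus lay above WT in both PA livers, at a level that is very low in WT. Gpd2, mitochondrial glycerol-3-phosphate dehydrogenase and another classical T3-induced gene, was at 37.7 and 29.9 CPM in PA and at 22.7 and 25.1 CPM in WT (log2 fold change 0.50, edgeR adjusted p = 0.403). The list was chosen for known regulation by the hormone, not for a common direction, and 6 of its genes also belong to the lipogenic list or the receptor partners. Without PA replicate 1 it held 2 called higher and 1 lower, without PA replicate 2 it held 1 higher and 2 lower, and without WT replicate 1 it held 1 higher, Hr.

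**Figure D3:**
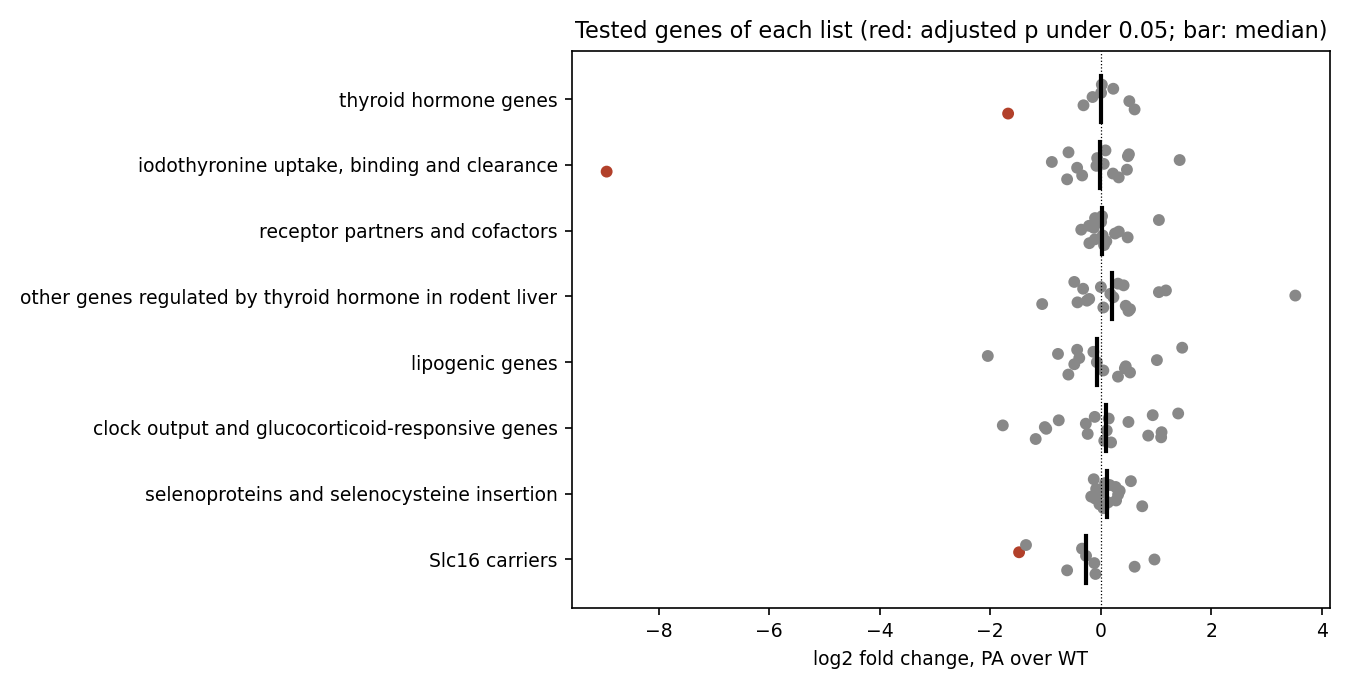
Log2 fold change of PA over WT for the tested genes of each list, a point per gene, red for an adjusted p under 0.05, with a bar at the list's median. Dio1 at -1.68, Slco1a1 at -8.94 and Slc16a11 at -1.48 are the called genes, and the medians lie between -0.27 and 0.20.

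Selenoprotein genes were listed because Dio1 needs selenocysteine. Of 16 tested, 0 were called by edgeR, DESeq2 or limma-voom, 1 had an edgeR unadjusted p under 0.05, and the median was 0.11. That 1 was Eefsec, the elongation factor for selenocysteine, at 17.7 and 23.0 CPM in PA and at 13.7 and 14.2 CPM in WT (log2 fold change 0.55, edgeR adjusted p = 0.379). Gpx4, a lipid peroxide reductase, was at 587 and 249.8 CPM in PA and at 253 and 244 CPM in WT (log2 fold change 0.75, edgeR adjusted p = 0.526), so its mean rests on PA replicate 1; without PA replicate 2 it was called higher. Selenos, a selenoprotein of the endoplasmic reticulum, was at 83.2 and 85.6 CPM in PA and at 75.7 and 60.0 CPM in WT (0.31 on the log2 scale, edgeR adjusted p = 0.627). Of the 16, 0 had both PA livers below both WT livers and 6 had both above, against 21.9% below and 21.3% above over all tested genes. The part of selenocysteine supply in the level of Dio1 was not tested. The median lay between 0.04 and 0.19 when 1 library was left out.

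Of 9 other carriers of the Slc16 family, 1 was called lower, with 7 negative values and a median of -0.27. Leaving out PA replicate 1, PA replicate 2, WT replicate 1 or WT replicate 2 gave medians of -0.04, -0.71, -0.42 and -0.47 in that order. It was Slc16a11, a monocarboxylate carrier of liver, at 3.69 and 3.60 CPM in PA and at 9.72 and 10.6 CPM in WT (-1.48 ± 0.22 SE on the log2 scale, edgeR adjusted p = 0.0428). The call was lost without WT replicate 1 (edgeR adjusted p = 0.0622), without WT replicate 2 (edgeR adjusted p = 0.0857), in limma-voom (adjusted p = 0.0509) and in edgeR on the RSEM expected counts (adjusted p = 0.0537).

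Thrsp and Me1 are also lipogenic genes, and 15 other lipogenic genes were listed. Of these, 15 were higher in PA replicate 2 than in PA replicate 1, against 49.8% of all tested genes, and 10 were higher in WT replicate 2 than in WT replicate 1, against 49.9%. PA replicate 2 was also the higher for 8 of 8 hepatocyte markers and 14 of 16 receptor partners. Between the groups 0 were called by edgeR or limma-voom and 1 by DESeq2, 5 had an edgeR unadjusted p under 0.05, and the median was -0.07. Dropping PA replicate 1 gave a median of 0.42 and dropping PA replicate 2 one of -0.89, while dropping WT replicate 1 gave -0.28 and dropping WT replicate 2 gave 0.27. Without PA replicate 1 there were 5 called higher, Fasn, Acacb, Acly and Gpam among them, and without PA replicate 2 there were 4 called lower (Acacb, Acly, Scd1 and Pnpla3). Gpam, the first enzyme of glycerolipid synthesis, was at 305 and 1116 CPM in PA and at 245 and 267 CPM in WT (log2 fold change 1.47, edgeR adjusted p = 0.345). Elovl5, a fatty acid elongase, was at 181 and 219.8 CPM in PA and at 369 and 316 CPM in WT (log2 fold change -0.77, edgeR adjusted p = 0.259). Fasn, fatty acid synthase, was at 311 and 1354 CPM in PA and at 513 and 640.3 CPM in WT, so the PA pair spanned the WT pair; it was named after its values were seen.

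Klf9 and Nr1d1 belong to the clock and glucocorticoid genes, of which 18 were tested besides Klf9. None was called by edgeR or limma-voom, DESeq2 called 1, Sgk1, 4 had an edgeR unadjusted p under 0.05, and the median was 0.09. It became 0.24 on dropping PA replicate 1 and -0.24 on dropping PA replicate 2, and 0.20 on dropping WT replicate 1 and 0.81 on dropping WT replicate 2. Per1, a clock gene that glucocorticoids induce, was at 13.1 and 22.8 CPM in PA and at 7.34 and 9.54 CPM in WT (log2 fold change 1.09, edgeR adjusted p = 0.217). Sgk1, a glucocorticoid-induced kinase, was at 58.8 and 22.8 CPM in PA and at 13.0 and 17.9 CPM in WT (log2 fold change 1.40, edgeR adjusted p = 0.258). Tsc22d3, the glucocorticoid-induced leucine zipper, was at 105 and 183 CPM in PA and at 84.0 and 66.4 CPM in WT (log2 fold change 0.94, edgeR adjusted p = 0.285). The clock output gene Dbp, named after its values were seen, was at 9.78 and 13.1 CPM in PA and at 4.86 and 73.6 CPM in WT, so the WT livers themselves lay far apart. Per3 and Cry1 were named in the same way. Per3 was higher in replicate 2 of each group, at 6.52 and 27.3 CPM in PA and 5.31 and 34.8 CPM in WT. Cry1 was at 6.28 and 20.8 CPM in PA and at 7.69 and 4.91 CPM in WT. Of the 18 genes, 12 were higher in PA replicate 2 than in PA replicate 1, and 10 in WT replicate 2 than in WT replicate 1. Leaving out 1 library gave 1 to 4 called genes: 3 higher and 1 lower without PA replicate 1, 1 higher without PA replicate 2, 1 higher and 1 lower without WT replicate 1, and 1 higher without WT replicate 2. The part of clock phase or feeding in the spread of Klf9 and Thrsp was not tested.

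**Figure D4:**
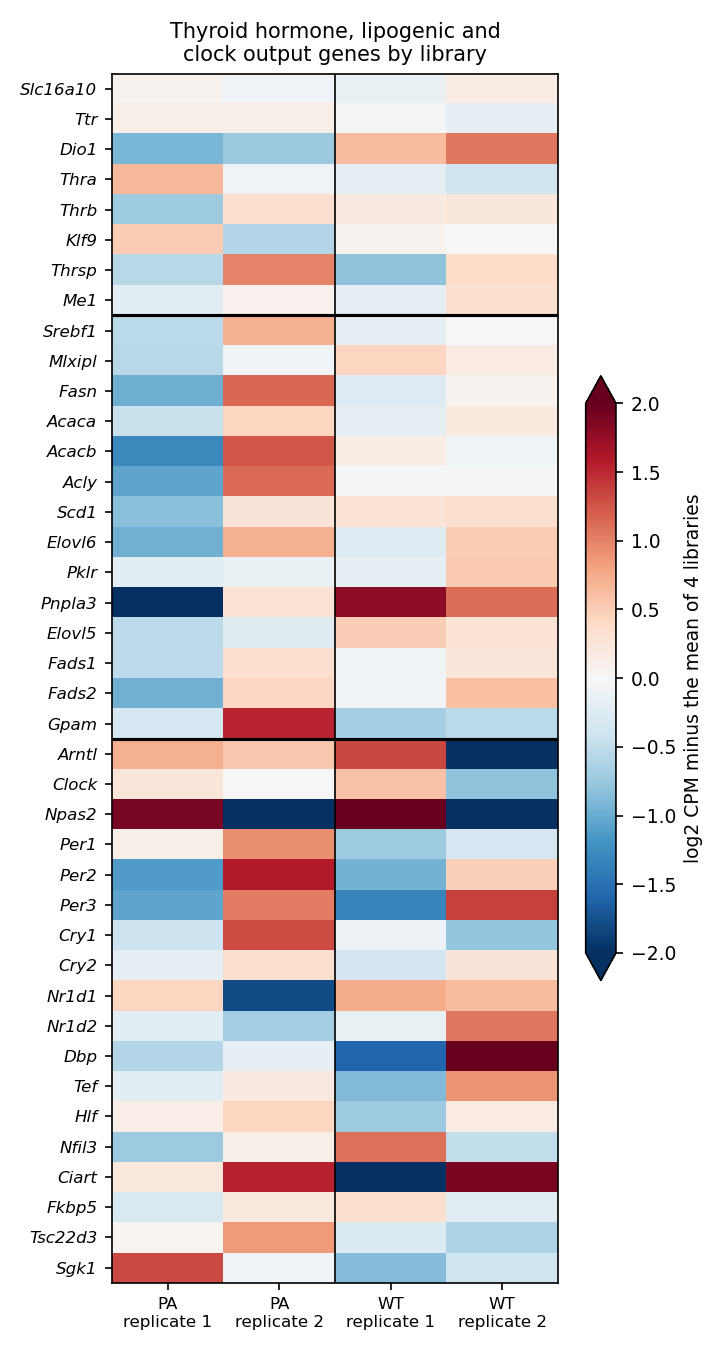
Log2 CPM of each gene minus its mean over the 4 libraries, for the 8 thyroid hormone genes (top), 14 of the 15 lipogenic genes (middle) and 18 clock output and glucocorticoid-responsive genes (bottom), PA libraries left of WT. Dio1 is low in both PA libraries, and Thrsp is high in replicate 2 of each group, at 1399 CPM in PA and 910 CPM in WT.

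Markers of other cells and mitochondrially encoded genes were summed per library. Over its 8 markers the Kupffer cell list stood at 243 and 356 CPM in PA and at 556 and 494 CPM in WT, with 7 of 8 log2 fold changes negative. The 6 B cell markers stood at 6.24 and 8.31 CPM in PA and at 18.8 and 16.2 CPM in WT, and the 6 T and NK cell markers at 2.59 and 3.37 CPM in PA and at 4.50 and 4.08 CPM in WT. The 6 endothelial markers stood at 162 and 165 CPM in PA and at 208 and 191 CPM in WT. The 6 stellate cell markers overlapped, at 387 and 348 CPM in PA and at 350.5 and 361 CPM in WT. The 6 cholangiocyte markers stood at 29.8 and 32.6 CPM in PA and at 34.3 and 48.3 CPM in WT, a sum that is mostly Spp1, while their median log2 fold change was 0.65. The 6 red blood cell markers stood at 11.9 and 16.8 CPM in PA and at 88.5 and 47.5 CPM in WT, with 2 called lower, Hbb-bs and Hbb-bt, against 4 in DESeq2, and 4 of the 5 tested at an unadjusted edgeR p under 0.05. The 6 pancreatic acinar markers stood at 12.1 and 7.94 CPM in PA and at 29.7 and 17.2 CPM in WT, nearly all of it Cela1, with 3 of the 6 at 0 counts in each library. Of the 13 mitochondrially encoded genes, 13 had positive values, 9 had an unadjusted edgeR p under 0.05 and 1, mt-Nd6, was called higher, against 7 in DESeq2. For the hepatocyte, Kupffer cell, B cell, T and NK cell, endothelial, stellate, cholangiocyte and pancreatic lists edgeR called 0 genes, with 1, 3, 3, 0, 1, 1, 3 and 1 at an unadjusted p under 0.05 in that order. DESeq2 called 1 hepatocyte gene higher, and 2 Kupffer cell genes, 1 B cell gene and 1 pancreatic gene lower. The part of these in the values of the thyroid hormone genes was not tested. With the mitochondrially encoded genes left out of the fit the log2 fold change of Dio1 was -1.67. That fit changes only the genes fitted and their scaling, so it does not test the part of mitochondrial content.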

How the data were processed

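Liver RNA of 2 PA and 2 WT mice was analysed, 1 library per mouse, grouped and numbered by the sample titles; the series' design text calls the replicates biological. Per the file layout, the authors deposited STAR gene counts by strand; per the file headers, they deposited RSEM expected counts, TPM and FPKM, of which TPM and FPKM served for levels per length, with no test. The submitters' processing notes name STAR 2.7.6a, RSEM 1.3.3 and GRCm38; the counting annotation is not given in the sources used here. The deposited transcript lengths, in bases (another unit of the RSEM files), follow the isoform mix. Summary lines that name no gene (28.1 to 34.3% of reads) were left out. Of 55487 identifiers, 55141 matched GENCODE M21, the source of symbols and positions.

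PA and WT were compared on opposite-strand counts in edgeR 4.0.16 (R 4.3.3, quasi-likelihood F-test): TMM, default low-count filter, genotype alone, prior count 0.125, all genes fitted, Benjamini-Hochberg adjusted p-values, threshold 0.05, two-sided. Standard errors are the log2 fold change over the square root of F. CPM use TMM-scaled library sizes. Alternatives were DESeq2 1.42.0, limma-voom (limma 3.58.1), other scalings and filters, unstranded counts, rounded RSEM expected counts, each library left out and a replicate block. Steps were tested on simulated data. Intervals cover the fitted model.

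A chi-square per degree of freedom of 135 for the PA pair and 46.3 for the WT pair, over genes with at least 20 counts, showed no duplicate library. The members and lists were chosen with earlier results of these data known. The naming rule took each pathway list's called genes, or the 3 with the smallest p, any gene overlapping a member on the other strand, and each marker list's 3 most abundant genes; marker lists are given mostly as sums, so not all of the last are named, and 1 pathway gene is not reported here. Other names followed their values.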

Additional observations from a re-analysis of the deposited data

How the results depend on the processing

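Dio1 kept its direction in all 14 alternatives and its call in 13 of them. Without each library in turn its log2 fold change was -1.88 to -1.43, and the count of thyroid hormone genes called lower was 0 to 1, the 0 without WT replicate 2. Leave-one-out ranges crossed 0 for Thrb (-0.92 to 0.12), Thrsp (-0.45 to 1.23), Me1 (-0.38 to 0.13), Slc16a10 (-0.14 to 0.17) and Klf9 (-0.62 to 0.46). With library sizes only, Slc16a10 was -0.037 and Klf9 -0.029; Slc16a10 was -0.0083 with no filter, and Klf9 was -0.071 in limma-voom and -0.077 with the replicate block. The cause was not tested. Thra and Ttr kept their sign in all 14. Over all genes the calls were 38 higher and 79 lower, against 186 and 256 in DESeq2, 414 and 488 with no filter on low counts, and 50 to 239 higher and 105 to 261 lower without 1 library. A fit without 1 library takes its variation from the other group's pair. The labels give same-numbered mice only a number in common, and whether they shared a day or hour of collection is not known. Their deviations from the group means correlated at -0.0907 over genes, a value that does not settle this. The replicate block gave 126 higher and 192 lower, with Dio1 still called. No alternative called another of the 8 genes. Missing the threshold with 2 mice per group does not show equal levels.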
